A study of Mus musculus with 2 samples.

Results

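The Hsd3b genes of the mouse encode 3beta-hydroxysteroid dehydrogenases, and 6 of them, Hsd3b1 to Hsd3b6, were followed in laser-captured liver areas of PiZ mice. A probe set was taken where the platform annotation named only these genes. This gave 5 probe sets, 1 each for Hsd3b1, Hsd3b2, Hsd3b3, Hsd3b5 and Hsd3b6, out of 30142 genes with probe sets of their own. Hsd3b4 shared both of its probe sets with the predicted genes Gm10681 and Gm4450 and has no value of its own.

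The globule-containing areas were compared with globule-free areas, each as 1 array of RNA pooled from 2 mice. Both groups came from untreated C57BL/6 mice aged 3 months, kept on standard chow, that carry the human Z mutant of alpha-1-antitrypsin (ATZ) under its own human promoter. The mutant protein builds up as globules in hepatocytes, and areas with or without globules were picked by eye on Cresyl Violet sections, so all mice carry the transgene and the labels separate the groups only by the area cut. The sex of the mice, and whether the same mice gave both pools, are not stated in the labels. With 1 array per group no difference has a replicate check, and no test, SD or p-value could be made. Each value describes these pools alone, and less RNA per hepatocyte and fewer expressing hepatocytes cannot be told apart in captured tissue.

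Enzymes of this family use a nicotinamide cofactor to act on the hydroxyl or keto group at carbon 3 of a steroid. The dehydrogenase/isomerase members make progesterone and androstenedione from their precursors in gonads, adrenal and placenta, and some of them are also found in liver and kidney. Other members, Hsd3b4 of the kidney and Hsd3b5 of the liver, work in the opposite direction as ketosteroid reductases and inactivate active androgens. Hsd3b5 is known as a gene of the male mouse liver, switched on by the pulsed growth hormone of males through STAT5b.

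All 5 measured Hsd3b genes had lower signals in globule-containing areas, but by very unequal amounts. Hsd3b2 and Hsd3b5 were more than 10 times lower, Hsd3b3 was about 2-fold lower, and Hsd3b6 and Hsd3b1 lay within 2-fold. In counts, 3 of 5 were lower by 2-fold or more and 0 higher, and the median log2 difference was -1.18. Of all 15023 genes above the expression floor (a mean log2 signal of 4.76), 5.26% were lower and 6.47% higher by 2-fold or more, and the median difference was 0.05. The floor lay below the background levels of both arrays (4.85 and 5.04), so these shares include dim genes. At 4-fold or more, 2 of 5 members were lower and 0 higher, against 1.32% of all genes lower and 1.42% higher. The split of all genes at 2-fold turned under every scaling tried, to 962 lower and 850 higher with quantile normalization, 977 and 839 with loess correction and 990 and 789 with median centring, from 790 and 972 as deposited. The members were followed with earlier results of these arrays known, and near-identical paralogs can share hybridisation, so the 5 values are not independent of each other.

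The sequences before the transcription starts of the 3 genes that were at least 2-fold lower are shown because they let a reader see how alike these paralogs are outside the coding part. Each is the 250 bases before an annotated RefSeq start on the minus strand of GRCm38.p6, from 5′ to 3′. They lie at chr3:98645535-98645784 for Hsd3b5, chr3:98724544-98724793 for Hsd3b2 and chr3:98763129-98763378 for the first of the 2 listed starts of Hsd3b3. Capitals mark runs of 12 or more bases found unchanged in another of the 3 windows.
Hsd3b5: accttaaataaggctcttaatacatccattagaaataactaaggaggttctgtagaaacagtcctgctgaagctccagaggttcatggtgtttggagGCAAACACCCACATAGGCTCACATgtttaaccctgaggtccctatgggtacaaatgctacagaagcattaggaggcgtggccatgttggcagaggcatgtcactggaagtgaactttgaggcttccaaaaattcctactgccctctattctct
Hsd3b2: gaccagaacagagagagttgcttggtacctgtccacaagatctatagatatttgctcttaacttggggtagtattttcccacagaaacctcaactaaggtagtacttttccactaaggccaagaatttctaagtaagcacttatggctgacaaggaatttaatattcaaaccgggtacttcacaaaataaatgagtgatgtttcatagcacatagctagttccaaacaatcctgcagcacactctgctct
Hsd3b3: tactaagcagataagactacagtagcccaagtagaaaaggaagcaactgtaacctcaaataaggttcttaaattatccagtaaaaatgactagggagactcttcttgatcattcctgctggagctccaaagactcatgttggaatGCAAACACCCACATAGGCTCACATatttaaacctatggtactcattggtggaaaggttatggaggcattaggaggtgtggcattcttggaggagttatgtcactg
The windows of Hsd3b5 and Hsd3b3 aligned over 197 bases with 78.2% identity and shared a run of 24 bases. Hsd3b2 shared no run longer than 8 bases with either of them in these windows, and its best local alignment to Hsd3b5 covered 31 bases. The closest differences of the 3 were those of Hsd3b2 (-4.21) and Hsd3b5 (-3.82), where the Hsd3b5 signal lay near background in globule-containing areas. Whether the likeness of windows goes with that of differences was not tested. The palindrome TTCNNNGAA, the letters bound by STAT5, was searched on both strands of all 8 windows of the 6 genes and was found in that of Hsd3b1 alone, whereas 7.02% of 32851 mouse windows of this length hold it. The nuclear receptor core AGGTCA was in none of the 8 windows, against 14% of all windows. The HNF6 core ATTGAT was in both overlapping windows of Hsd3b4, against 6.72% of all windows, and no match overlapped another motif. Such matches describe the letters of these windows and nothing more.

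Among the reductases, Hsd3b5 (probe set TC0300002554.mm.1) gave 5.30 on the log2 scale in globule-containing areas, against 9.12 in globule-free areas. Its log2 difference was -3.82, 14.2-fold lower, and 29 of the 15023 genes, itself included, had a difference this low or lower. In globule-containing areas its signal was 0.45 above the background level of 4.85, which was set from olfactory and vomeronasal receptor probe sets, whereas in globule-free areas it was 4.09 above that array's background of 5.04. The Hsd3b5 signal was thus close to the background on one array and clear of it on the other.

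Hsd3b4 could be read only together with its predicted neighbours. The probe set shared with Gm10681 had 5.12 in globule-containing areas against 6.24 in globule-free areas, a log2 difference of -1.12. The probe set shared with Gm10681 and Gm4450 had 4.78, which is below background, against 5.94. Both shared probe sets were therefore dim on either array and lower where globules were present, and which of the genes gave the signal was not measured.

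Of the dehydrogenase/isomerases reported in liver and kidney, Hsd3b2 (TC0300002558.mm.1) had 8.39 in globule-containing areas and 12.60 in globule-free areas. The log2 difference was -4.21, 18.5-fold lower, and 16 genes, itself included, had a difference this low or lower. Both signals were well clear of background, by 3.54 and 7.56, so this difference does not rest on a dim signal. Hsd3b3 (TC0300002559.mm.1) had 10.95 in globule-containing areas against 12.13 in globule-free areas. It was 2.27-fold lower, a log2 difference of -1.18, and 3.91% of all genes were as low or lower. Globule-containing areas thus kept 44.1% of the Hsd3b3 signal but 5.41% of the Hsd3b2 signal, although the genes lie next to each other in the cluster.

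The members better known from other organs were dim. Hsd3b6 (TC0300002561.mm.1), a dehydrogenase/isomerase of the adrenal zona glomerulosa and of trophoblast, had 5.43 against 6.16, a log2 difference of -0.73. Hsd3b1 (TC0300002565.mm.1), the main enzyme of mouse gonads and adrenal, had 5.17 in globule-containing areas against 5.45 in globule-free areas, a difference of -0.28. The Hsd3b1 signals were 0.32 and 0.41 above background, and 23.2% of all genes had a difference this low or lower. A change in Hsd3b1 would have been hard to see at signals this close to background.

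**Figure D1:**
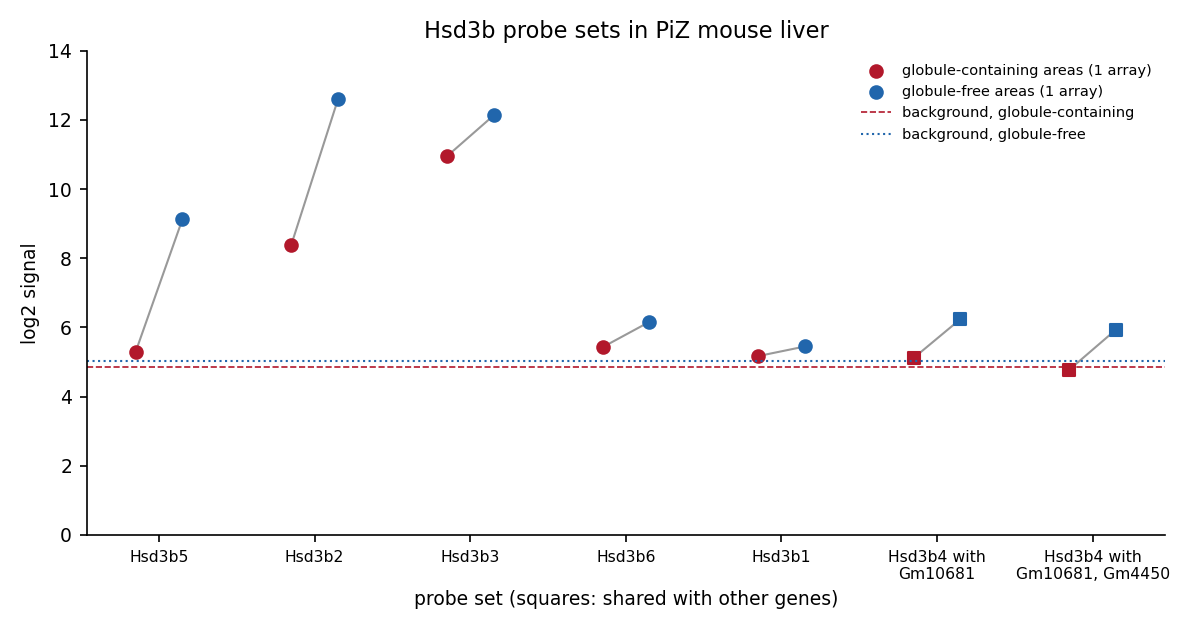
Log2 signal of the 5 Hsd3b probe sets (circles) and of both probe sets that Hsd3b4 shares with predicted genes (squares), with the globule-containing array at the left and the globule-free array at the right of each pair. The dashed and dotted lines are the background levels, 4.85 for globule-containing and 5.04 for globule-free areas; Hsd3b5 lies near the line in globule-containing areas (5.30) and far above it in globule-free areas (9.12).

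**Figure D2:**
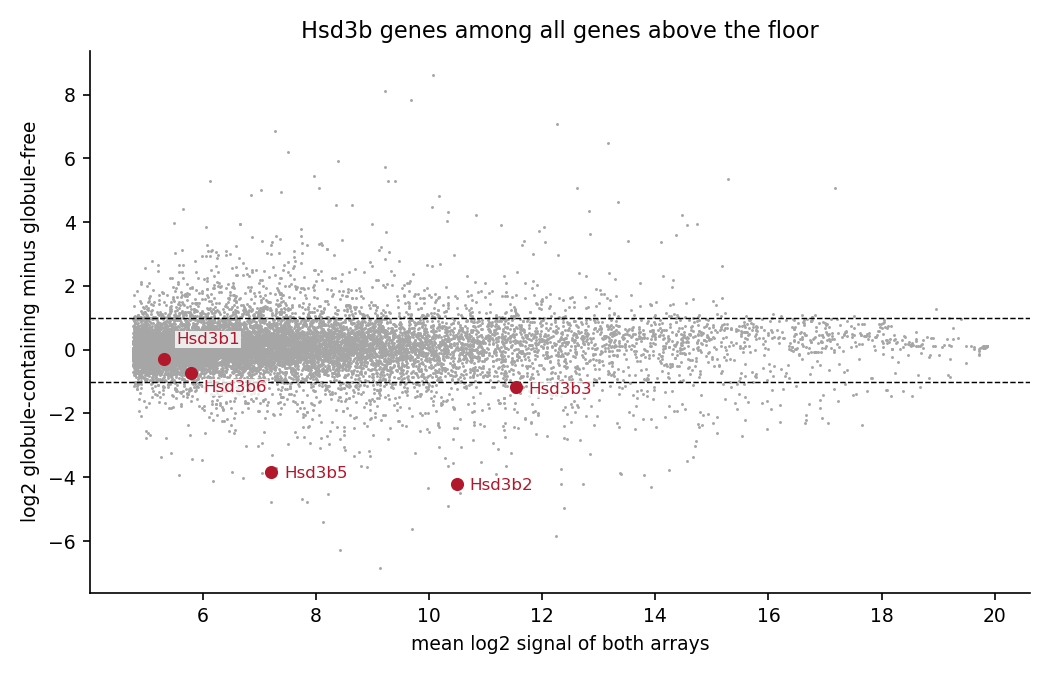
Log2 difference, globule-containing minus globule-free, against the mean log2 signal of both arrays for 15023 genes above the floor (grey points), with the 5 Hsd3b genes in red. The dashed lines mark 2-fold; Hsd3b2 (-4.21) and Hsd3b5 (-3.82) lie near the lower edge of the cloud and Hsd3b3 (-1.18) just past the lower line.

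The genes most like Hsd3b2 over the 2 arrays, taken as the 3 named genes with the closest difference, were Ces1e (-4.20), a carboxylesterase, Apom (-4.22), an apolipoprotein of high-density lipoprotein, and Slc10a1 (-4.30), the bile acid importer of hepatocytes. The likeness is in a single difference between 2 arrays.

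The Hsd3b genes stand side by side on chromosome 3, and no measured gene around them passed 2-fold, though most of these were at background. Of 10 nearest named protein-coding genes, 5 on each side, 9 were measured, and 7 of the 9 lay at background on both arrays, among them Adam30, Reg4, Phgdh, an enzyme of serine synthesis, Zfp697, Tbx15 and Spag17. Hao2, a hydroxyacid oxidase and the nearest gene beyond Hsd3b1, also lay at background, with 3.97 against 4.48. Wars2, the mitochondrial tryptophan tRNA ligase, had 5.23 in globule-containing areas against 5.57 in globule-free areas, and Wdr3 had 6.07 against 6.04.

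Inside the cluster the annotation also places pseudogenes, chosen for mention after their values were seen. Gm12399, between Hsd3b5 and Hsd3b2, had 5.14 in globule-containing areas against 6.20 in globule-free areas, a log2 difference of -1.06. Gm12400 next to it was dim on both arrays. It had 4.90 in globule-containing areas, close to the background of 4.85, and its globule-free signal lay at background. Its log2 difference was -0.10, so the signal was not higher where globules were present. Gm12428, between Hsd3b6 and Hsd3b1, went the other way, with 13.11 in globule-containing areas against 11.48 in globule-free areas, 3.08-fold higher. What its probes bind was not measured.

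**Figure D3:**
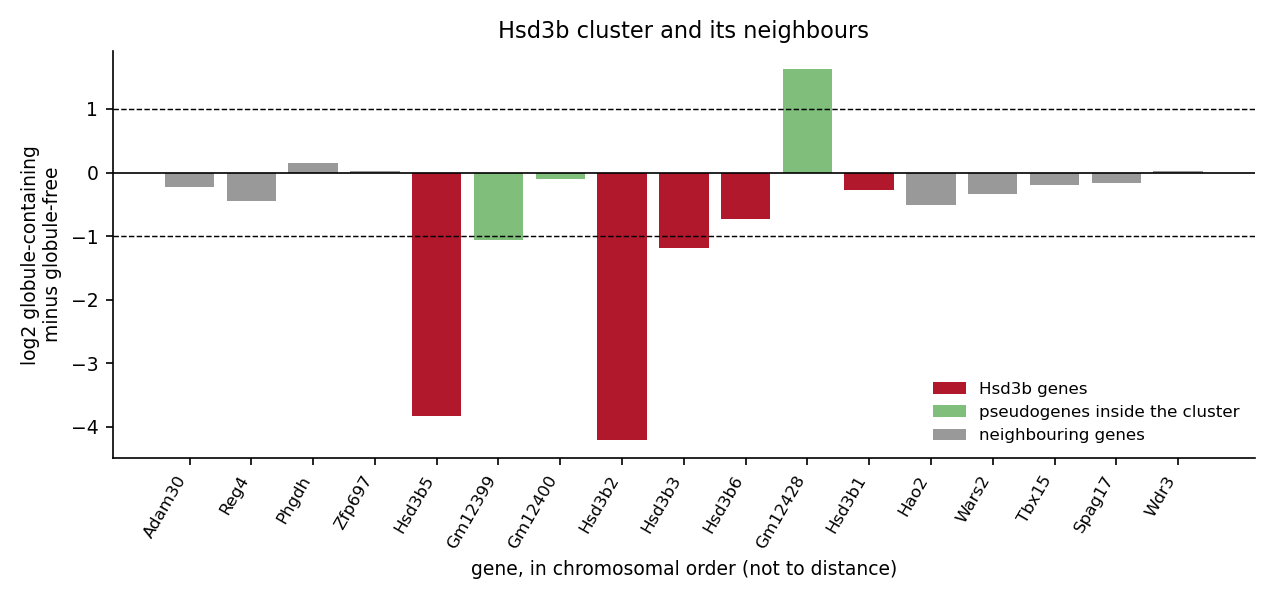
Log2 difference, globule-containing minus globule-free, for the measured genes of the Hsd3b cluster (red), the pseudogenes inside it (green) and the nearest named genes on each side (grey), in chromosomal order. Dashed lines mark 2-fold; Hsd3b5, Hsd3b2, Hsd3b3 and the pseudogene Gm12399 lie past the lower line and the pseudogene Gm12428 (1.62) past the upper one, and 7 of the 9 grey bars belong to genes at background on both arrays.

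Relatives of the family outside the cluster lay within 2-fold, as did most genes above the floor. Hsd3b7, the 3beta-hydroxysteroid dehydrogenase of bile acid synthesis, had 7.70 in globule-containing areas against 7.90 in globule-free areas, a difference of -0.21. Nsdhl, which acts on sterol intermediates of cholesterol synthesis, had 9.41 against 9.44. Sdr42e1, a short-chain dehydrogenase related to this family, had 7.21 against 8.01, 1.75-fold lower. So 0 of 3 relatives passed 2-fold, against 5.26% of all genes lower and 6.47% higher. Hsd3b8 and Hsd3b9 have no probe set of their own here.

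Most listed genes of steroid hormone synthesis were dim. Of 11 measured genes of this list, 6 lay at background on both arrays, namely Star, the mitochondrial cholesterol carrier, Cyp11a1, which cleaves the cholesterol side chain, Cyp17a1, Cyp11b1, Cyp11b2 and Nr5a1, the master factor of steroidogenic cells. The 5 above the floor all lay within 2-fold, where only 5.26% of all genes were lower and 6.47% higher by 2-fold or more. Among these, Nr5a2, a nuclear receptor of hepatocytes, had 8.90 in globule-containing areas against 9.49 in globule-free areas, and Fdx1, a mitochondrial electron carrier, 10.93 against 11.49. Stard3 had 6.35 against 5.92 and Cyp21a1 6.14 against 5.76.

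Enzymes that inactivate or convert steroids in the liver, the step at which Hsd3b5 acts, were more often lower than higher. Of 23 genes above the floor, 7 were lower and 1 higher by 2-fold or more, against 5.26% lower and 6.47% higher among all genes, and the median difference was -0.42 beside 0.05 over all genes. Hsd17b6, which oxidises and reduces androgen metabolites, had 9.03 in globule-containing areas against 12.09 in globule-free areas, 8.34-fold lower. Akr1d1, the steroid reductase that also serves bile acid synthesis, had 11.19 against 13.58, 5.23-fold lower. Sult2a8, a sulfotransferase of the liver, was 3.47-fold lower and Akr1c14, a hydroxysteroid dehydrogenase of the aldo-keto reductases, 2.89-fold. Akr1c genes are close paralogs whose probes can share signal. The list median was -0.24 with no floor and -0.81 with the floor at the 75th percentile.

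Since Hsd3b5 is known as a male gene of mouse liver, other sex-biased genes were read beside it. Both arrays carried signal of Y-linked genes: Eif2s3y had 10.03 in globule-containing areas against 9.94 in globule-free areas, Kdm5d 7.09 against 6.98 and Uty 8.39 against 7.87. Xist, the RNA of the inactive X chromosome in females, lay at background on both arrays, with 4.04 against 4.32. These genes of the sex chromosomes lay within 2-fold between the arrays. Hsd3b5 was 14.2-fold lower, and whether sex has a part in this difference was not tested.

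Of 20 male-biased genes above the floor, 10 were lower and 2 higher by 2-fold or more where globules were present, against 5.26% and 6.47% of all genes. Their median was -0.80 above the floor and -0.23 with no floor, and the other 8 lay within 2-fold. Elovl3, a fatty acid elongase of male liver, lay at background in globule-containing areas (4.70) against 8.73 in globule-free areas, at least 14.7-fold lower. Egfr, the epidermal growth factor receptor, had 13.29 against 16.16, 7.32-fold lower, Nudt7, a peroxisomal coenzyme A hydrolase, was 5.14-fold and Susd4 3.70-fold lower. The 2 higher genes were Nat8f5 (2.6-fold) and Gstp1 (2.41-fold). Other genes known for male bias lay within 2-fold: Cyp2d9 had 17.50 in globule-containing areas against 17.43 in globule-free areas and Cyp4a12a 16.69 against 16.62, both from families whose probes can share signal.

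Of 15 female-biased genes above the floor, 3 were higher and 4 lower by 2-fold or more, against 6.47% higher and 5.26% lower among all genes, and the median was 0.20. Atp6v0d2, a proton pump subunit that osteoclasts and macrophages also carry, was 33.8-fold higher. Of 11 macrophage markers on the same arrays, 3 were higher and 5 lower by 2-fold or more. Cd68, among the higher, had 13.80 against 10.07, and the part of macrophages in the Atp6v0d2 value was not tested. Cyp2a4, a steroid hydroxylase, had 16.51 against 12.61, 14.9-fold higher, and Rtn4 was 4.54-fold higher. Cyp2a4 also belongs to a family whose probes can share signal, so its value may not be of this gene alone. Abcd2, a peroxisomal transporter, was at least 4.81-fold lower. Another 7 genes of the list, among them Cux2, A1bg and Sult3a1, lay at background on both arrays.

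Genes of growth hormone signalling split. Of 13 above the floor, 4 were lower and 1 higher by 2-fold or more, against 5.26% and 6.47% of all genes, and the median was 0.15 (-0.68 with the floor at the 75th percentile). The lower ones were Igfals, the acid-labile subunit of the circulating IGF complex, with 7.81 in globule-containing areas against 12.16 in globule-free areas, Onecut1, which encodes HNF6, with 8.06 against 10.25, Igf1 with 11.76 against 13.36, and Ghr, the growth hormone receptor, with 11.08 against 12.25. Igfbp3, an IGF carrier, was 2.30-fold higher. The transducers Stat5b, with 7.84 against 7.58, and Jak2, with 7.67 against 7.32, lay within 2-fold, as did Bcl6, a repressor of STAT5 targets, with 7.43 against 6.81.

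Markers of lobular position and of other cells moved on the same arrays, and their part in the Hsd3b differences was not tested. The counts below stand beside 5.26% lower and 6.47% higher by 2-fold or more, and a median of 0.05, among all genes above the floor. Of 8 periportal hepatocyte markers, 7 were lower and 0 higher by 2-fold or more, the median was -3.46, and the log2 of their summed signal was 16.48 in globule-containing areas against 19.11 in globule-free areas. Hal, Etnppl, Pigr and G6pc differed most among them. Of 10 pericentral markers, 1 was higher and 0 lower by 2-fold or more, the median was 0.36, and summed signals were 19.61 against 19.26. Gulo, which makes a precursor of vitamin C, alone of these passed 2-fold, at 4.56-fold higher. Cyp1a2 and Cyp27a1 were higher and Oat lower, all within 2-fold. General hepatocyte markers were bright on both arrays. Alb and Ahsg were saturated on both and Ttr in globule-free areas, so these 3 say nothing of a difference, and the other 5 had summed signals of 20.25 against 21.07. Cps1 of the urea cycle was the only gene of these 5 past 2-fold, being lower, and it is part of that sum. Fgb, Apoa1 and Hnf4a differed by -0.87, -0.80 and -0.75. For stellate cells and fibroblasts, 9 of 9 markers above the floor were at least 2-fold higher, with summed signals of 15.66 against 12.31, and Des lay at background. Lum, Lrat, Dcn and Reln were the furthest up. Macrophage markers split into 3 higher and 5 lower of 11, with a median of 0.04. Their summed signals were 18.05 against 13.71, of which Lyz2 alone had 17.96 against 12.62. Lyz2 and Cd68 were the markers furthest up, and Clec4f and Cd5l of resident macrophages, 8.28-fold and 6.41-fold lower, the furthest down. Of 5 neutrophil markers, S100a8 and S100a9 were at least 2-fold higher, Ly6g and Cxcr2 came next within 2-fold, and the median was 0.27. The list's summed signals were 12.19 against 8.04. In globule-containing areas S100a8 alone had 11.34 and S100a9 10.91. Endothelial summed signals were 11.95 against 11.51, with 1 of 7, Eng, at least 2-fold higher. Cdh5 (-0.80), Clec4g (0.61) and Lyve1 (0.27) lay within 2-fold. Of 5 measured cholangiocyte markers, Epcam, Krt19 and Sox9 were above the floor and none of these 3 passed 2-fold. Epcam and Krt19 lay at background in globule-free areas, and 2 markers, Cftr among them, on both arrays. The cholangiocyte summed signals were 7.62 against 7.25 and include these background signals, so they say little of a difference. All 4 measured T and B cell markers, Cd3e, Cd3d, Ms4a1 and Cd79a, lay at background.

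**Figure D4:**
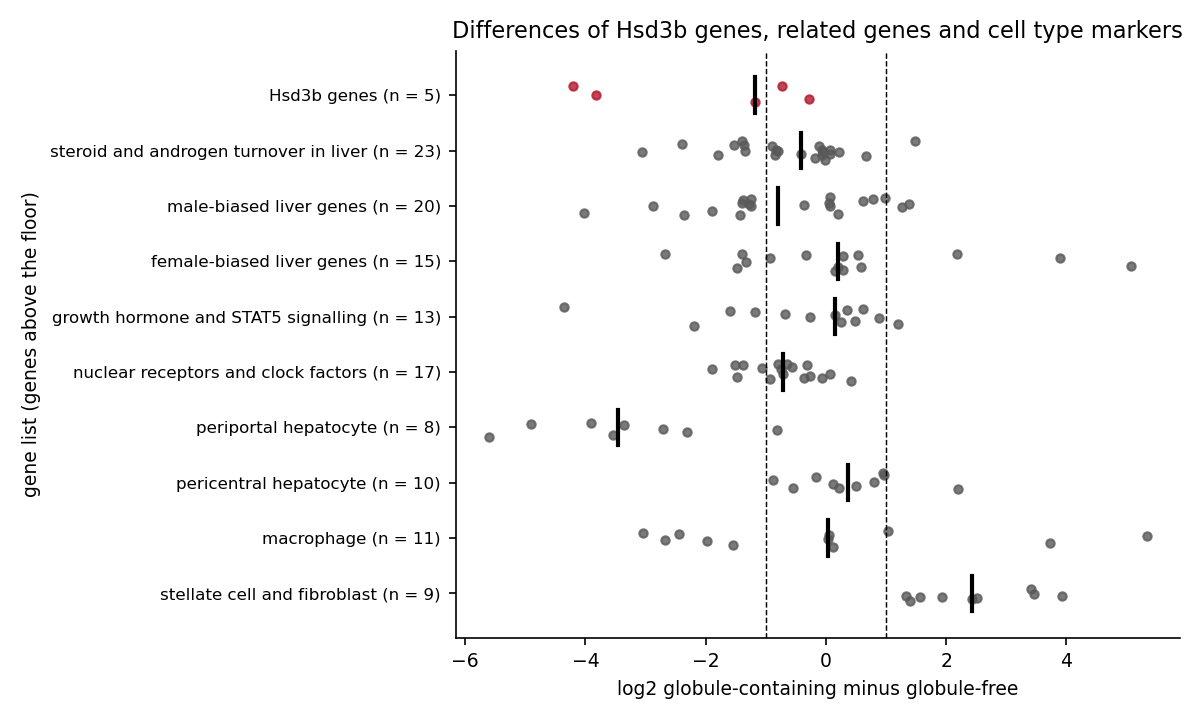
Log2 difference, globule-containing minus globule-free, of each gene above the floor (points) in the Hsd3b family, related lists and cell type marker lists, with list medians as black bars and 2-fold as dashed lines. The Hsd3b median is -1.18 and the periportal median -3.46, and the stellate cell and fibroblast median is 2.43.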

How the data were processed

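RNA from 1 globule-containing and 1 globule-free pool was amplified with NuGEN Ovation WTA System V2 from 50 ng, per the labels' protocols. The deposited table holds log2 signals of 72688 probe sets. The authors used the Transcriptome Analysis Console (per the submitters' processing notes). No source used here names the normalization or the genome build. The log2 scale of the deposited values was read from their range, from 1.85 to 19.93 for globule-containing and from 1.85 to 19.80 for globule-free areas.

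Names came from the platform annotation, updated by Entrez ID through RefSeq (GRCm38.p6; 22818 probe sets matched, 827 symbols changed). Of the probe sets, 30604 named 1 gene, 2146 several and 39938 none. Probe sets of a gene were averaged. The floor was the median over probe sets naming 1 gene, and background was the 95th percentile, on each array, of 1721 probe sets of olfactory and vomeronasal receptors. Where 1 array lay at background, the dim value was raised to it and the fold given as "at least". Counts and medians use deposited values, without raising. Probe sets within 0.2 of an array's highest value were taken as saturated. Summed marker signals add linear signals over all measured members, without saturated ones.

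Members and lists were chosen with earlier results of these data known. Named are all members, their relatives, the genes of the sex chromosomes, the cluster's neighbours, the 3 genes closest to Hsd3b2, and in each list the 4 genes that differed most. Further genes (Cyp2d9, Cyp4a12a, Nat8f5, Gstp1, Ghr, Stat5b, Jak2, Bcl6, Rora, the estrogen receptor Esr1, Clock, Cux2, A1bg, Sult3a1, the synthesis genes at background and the pseudogenes) were chosen after their values were seen. Cyp2d9, Cyp7b1, Bcl6, Cyp17a1, Hnf4a and Hao2 belong to more than 1 group. The calculations were tested on simulated arrays. Promoter windows came from RefSeq tables and were aligned locally. Alternatives were quantile, loess and median scaling, the threshold, the floor, the probe set choice, raised dim signals and shared probe sets. The number of arrays limits the precision. Software was Python 3.11.15, numpy 2.4.6, pandas 2.3.3, statsmodels 0.14.6, Biopython 1.88 and matplotlib 3.10.9.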

Additional observations from a re-analysis of the deposited data

How the results depend on the processing

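No paired analysis was possible because each group is 1 array. A value was taken as moved where it shifted by more than 0.17, the median gap between the differences of 2 probe sets of a gene. Across 15 member differences recomputed under 3 scalings, 0 reversed and 1 moved: Hsd3b3, and with it the member median, became -1.36 after loess correction. Hsd3b2 ranged from -4.37 to -4.31 and Hsd3b5 from -3.93 to -3.86 over these scalings. Raising dim signals could not change the members, since 0 of them lay at background, and adding shared probe sets leaves their own values as they are. The count of members at least 2-fold lower stayed at 3 under all scalings and was 4 with the shared Hsd3b4 probe sets added. Over all genes, 1786 were lower and 2406 higher at 1.5-fold, and 198 and 213 at 4-fold. With the floor at the 75th percentile, 599 were lower and 642 higher. That floor keeps fewer genes, so these counts cannot be set directly against 790 and 972. Median centring shifted all differences by -0.10, and all 3 scalings turned the split of 790 lower and 972 higher genes, to 962 and 850 (quantile), 977 and 839 (loess) and 990 and 789 (median centring). The median of the steroid turnover list was -0.63 after quantile normalization and -0.65 after loess correction. That of steroid synthesis steps, 0.19 as reported, was -0.03 with no floor and -0.56 with the floor at the 75th percentile. With that floor, 1 female-biased gene in place of 4 was at least 2-fold lower and 0 turnover genes in place of 1 were higher. After loess correction 1 male-biased gene in place of 2 was higher. Of all genes, 11.9% were lower and 16% higher at 1.5-fold, and 1.32% and 1.42% at 4-fold. At 1.5-fold, 11 of 23 turnover genes and 10 of 17 nuclear receptors and clock factors were lower, against 7 and 5 at 2-fold. Higher at 1.5-fold were 5 of 20 male-biased, 3 of 13 growth hormone and 2 of 23 turnover genes, against 2, 1 and 1 at 2-fold. Lower at 1.5-fold were also 1 of 3 relatives and 1 of 5 synthesis genes, against 0 at 2-fold. At 4-fold, 2 of 23 turnover, 3 of 20 male-biased, 1 of 15 female-biased and 2 of 13 growth hormone genes were lower. None of the 17 nuclear receptors and clock factors was lower at 4-fold, and 0 turnover, male-biased and growth hormone genes were higher. The cause of these shifts was not tested. With 1 array per group, and Hsd3b5, Hsd3b6 and Hsd3b1 near background in globule-containing areas, the folds of these 3 genes are limited by the signal over background.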

Other observations

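Nuclear receptors and clock factors, several of which are known to act on steroid-metabolising genes of the liver, were lower or level in globule-containing areas. Of 17 genes above the floor, 5 were lower and 0 higher by 2-fold or more, against 5.26% lower and 6.47% higher among all genes. The median difference was -0.71, beside 0.05 over all genes. Nr0b2, the bile acid-induced corepressor SHP, gave log2 signals of 7.40 in globule-containing areas against 9.30 in globule-free areas, 3.72-fold lower. Nr1i3, the xenobiotic receptor CAR, was 2.84-fold lower, Ppara, the fatty acid receptor, 2.80-fold and Dbp, a circadian output factor, 2.59-fold. Esr1, the estrogen receptor, had 5.97 against 7.04 and was the fifth gene past 2-fold. Rora, a receptor known to act on Hsd3b5 in mouse liver, had 7.17 against 7.73, a difference of -0.57, and Clock went the other way with 9.45 against 9.03. On the same arrays 7 of 8 periportal markers were at least 2-fold lower, and their part in these differences was not tested.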
